A study of Mus musculus with 28 samples.

Results

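The cytosolic ribosome is built from ribosomal RNA and a large set of small proteins, and it translates every mRNA of the cell outside the mitochondria. In the tables of gene counts from mouse hippocampus, 82 of 55487 gene IDs met the rule used to pick these genes: a symbol of the Rpl or Rps series, no pseudogene or related-sequence suffix, no S6 kinase, and a mean CPM (a count scaled to a common library total) of at least 5 over the 24 hippocampal libraries. By their names they were 42 proteins of the large subunit, 30 of the small subunit, 3 of the stalk (Rplp0, Rplp1 and Rplp2), 5 paralogues or retrocopies (Rpl22l1, Rps4l, Rps27l, Rps27rt and Rpl6l) and 2 genes whose products are not ribosome parts (Rps19bp1 and Rpl7l1). Another 11 symbols of the same form lay under the minimum and 300 pseudogene entries were left out. The last genes inside the minimum were Rps27l at 5.5 CPM and Rps27rt at 7.61 CPM, and the first outside were Rpl37rt at 4.44 and Rps10 at 2.59 CPM. Rps10, Rpl24 and Rpl36al, which are also ribosome parts, lay outside. How reads shared by near-identical copies were counted is not stated in the labels, and levels of genes with many copies are uncertain.

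The animals were 9 months old and came from a pair of cohorts, each with WT and 5xFAD animals of its own ancestry. 5xFAD mice carry mutant human transgenes, among them APP, driven in neurons by the Thy1 promoter, and they develop amyloid plaques and gliosis. The Ripk1 cohort also held Ripk1D138N/D138N mice, whose RIPK1 lacks kinase activity in all cells, without and with the transgenes (D138N and D138N 5xFAD). The Zbp1 cohort held Zbp1-/- mice, which lack the nucleic acid sensor ZBP1, in the same way (Zbp1 KO and Zbp1 KO 5xFAD). Each of the 8 groups had 3 libraries of polyadenylated RNA. The labels do not say whether each library is 1 animal, so p-values measure the spread between libraries. In addition, 4 libraries of an RNA immunoprecipitation (RIP) came from WT and from 5xFAD hippocampus, with 1 input and 1 immunoprecipitate (IP) made with a ZBP1 antibody for each genotype.

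Ribosomal protein mRNAs are long-lived, abundant and made in matched amounts. Most begin with a C followed by a run of pyrimidines, the 5′ terminal oligopyrimidine (TOP) motif, through which the kinase mTOR and the RNA-binding protein LARP1 set how strongly they are translated. The same motif is carried by mRNAs of translation factors and of the protein TPT1, and microglia, astrocytes and neurons differ in how much ribosomal protein mRNA they hold. In bulk tissue a change in the share of a cell type and a change in RNA per cell cannot be told apart.

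The start sites of 6 genes that the results turn on are printed first, because they show pyrimidine stretches near the start both of genes that were called in 5xFAD and of genes that were not. Each line runs 5′ to 3′ on the gene's strand over 70 bases of RefSeq promoter sequence (GRCm38.p6), from 40 before to 30 after the annotated start, and capitals mark the longest stretch of a C and at least 5 further pyrimidines that begins within 30 bases of that start. Rplp2 encodes a stalk protein, Rpsa and Rps6 small subunit proteins, and Rpl22l1 a paralogue of the large subunit protein Rpl22. Rpl7a and Rps15a had the smallest fold changes among the subunit proteins in 5xFAD against WT of the Ripk1 cohort.
Rplp2, chr7:141447611-141447680, plus strand: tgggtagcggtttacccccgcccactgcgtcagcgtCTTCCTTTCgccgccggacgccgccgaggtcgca
Rpsa, chr9:120127726-120127795, plus strand: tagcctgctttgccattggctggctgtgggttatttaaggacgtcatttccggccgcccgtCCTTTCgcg
Rps6, chr4:86857338-86857407, minus strand: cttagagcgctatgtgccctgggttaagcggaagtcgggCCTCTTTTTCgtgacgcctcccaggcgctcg
Rpl22l1, chr3:28805468-28805537, plus strand: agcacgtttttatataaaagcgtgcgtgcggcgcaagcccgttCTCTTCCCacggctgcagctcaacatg
Rpl7a, chr2:26910767-26910836, plus strand: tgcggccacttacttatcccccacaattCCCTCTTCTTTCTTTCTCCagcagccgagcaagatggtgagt
Rps15a, chr7:118116118-118116187, minus strand: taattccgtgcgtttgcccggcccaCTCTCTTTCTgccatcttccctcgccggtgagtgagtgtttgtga
The marked stretch spans the annotated start in Rplp2, Rps6 and Rpl7a. It begins 3 and 21 bases after that start in Rpl22l1 and Rpsa, and ends before it in Rps15a. In Rps15a a shorter stretch, cttccctc, begins at the annotated start but is not marked, as only the longest is. A marked stretch is thus not in each case a TOP motif by the annotated start. The longest of these stretches, 19 bases, belonged to Rpl7a. Of the 82 genes, 60 matched a RefSeq promoter by symbol, with 71 annotated starts in all. A pyrimidine stretch by this rule lay at 73.2% of the 71 starts and at 41.7% of 32851 starts of all genes. CCGGAAG, the core recognised by ETS-family factors such as GABPA, lay on either strand in 35.2% of the 300-base windows of these genes and in 8.86% of all windows. AAGATGG, the YY1 core, lay in 16.9% against 6.34%, and GGGCGG, a GC box, in 62% against 35.7%. TATAA, the TATA box core, lay in 23.9% against 24.9%, so its share was about that of all genes. A match is a description of the letters and not a binding site. Among the 48 matched genes with a pyrimidine stretch, 40 were called in 5xFAD against WT of the Ripk1 cohort, with a median log2 fold change of 0.56. Among the 12 without, 9 were called, with a median of 0.59. Genes with and without the stretch thus had similar medians.

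Total counts ran from 8362348 to 44801371 per hippocampal library, and no 2 libraries of a group agreed within sampling noise. The neuronal marker Snap25 stood at 1489 CPM or more in every library. Zbp1 lay at 0 to 0.373 CPM in the WT, at 0 to 0.318 CPM in the Zbp1 KO and at 0.298 to 0.351 CPM in the Zbp1 KO 5xFAD libraries, and at 1.78 to 3.62 CPM in the 5xFAD libraries of that cohort; which part of the gene was deleted is not given in the labels. WT library 2 and 5xFAD library 2 of the Zbp1 cohort stood apart. The long noncoding RNA Meg3 stood at 2463 and 2129 CPM in them and at 4640 CPM or more in the other 22 libraries. Malat1, another long noncoding RNA, stood at 969 and 783 CPM in them and at 1938 CPM or more in the other 22. Choroid plexus markers summed to 4665 and 4636 CPM in them, but to anything from 50.4 to 4753 CPM over the 24 libraries. Their part in the levels of the ribosomal protein genes was not tested.

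In the Ripk1 cohort the ribosomal protein genes rose together in 5xFAD hippocampus. Their share of all counts was 0.695, 0.756 and 0.807% in the WT libraries and 1.01, 1.26 and 1.12% in the 5xFAD libraries. The groups did not overlap, and the mean went from 0.753% ± 0.0563 (SD, n = 3) to 1.13% ± 0.124 (SD, n = 3). Of the 82 genes, 66 were called higher and 0 lower (edgeR's quasi-likelihood test, Benjamini-Hochberg adjusted p under 0.05). Of the 21376 genes tested, 8.11% were called higher and 8.02% lower. The point estimate was above 0 for all 82, and the median log2 fold change was 0.57, a 1.48-fold increase, against 0.02 over all genes tested. In 71 of the 82 every 5xFAD library lay above every WT library, a pattern that 17.7% of all genes tested showed. The calls were 35 of 42 large subunit genes, 27 of 30 small subunit genes, 3 of 3 stalk genes, 1 of 5 paralogues or retrocopies and 0 of the 2 that are not ribosome parts. Leaving out 5xFAD library 2 left 41 calls and leaving out WT library 1 left 42, all among the 66. That 5xFAD library was the highest of its group in 75 of the 82 genes (33.9% of all genes tested). WT library 1 was the lowest of its group in 63 of the 82 (6353 of 21376 genes tested). 

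**Figure D1:**
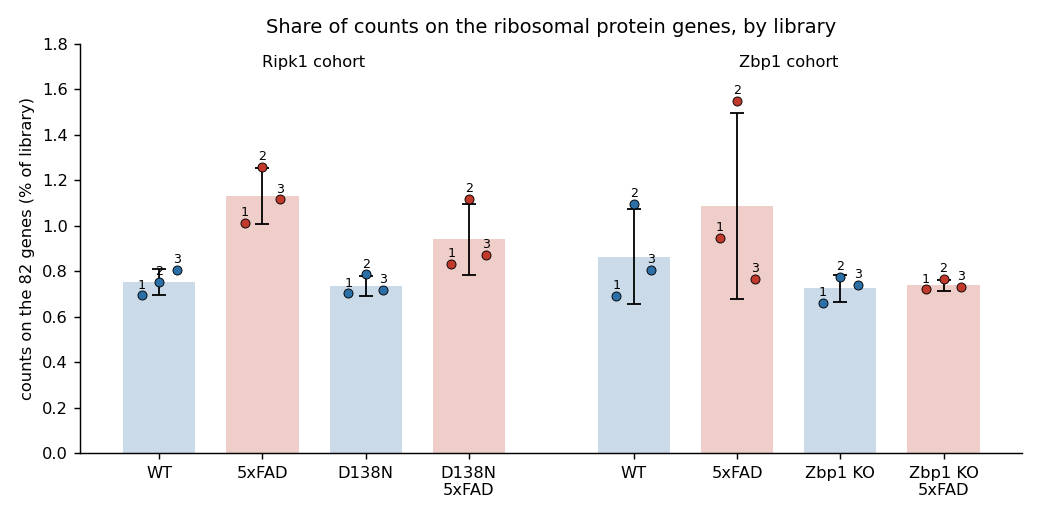
Percent of each library's counts on the 82 ribosomal protein genes (y axis) in the 8 genotype groups (x axis). Points are libraries labelled with their replicate number, bars are means and whiskers are ± SD (n = 3). The 3 5xFAD libraries of the Ripk1 cohort lie between 1.01 and 1.26%, above the WT libraries at 0.695 to 0.807%, and in the Zbp1 cohort library 2 of WT and library 2 of 5xFAD lie above the others of their group.

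The stalk proteins form the flexible arm of the large subunit that recruits translation factors. Rplp0, which anchors the stalk, stood at 154, 139 and 161 CPM in WT and at 223, 260 and 217 CPM in 5xFAD. Its log2 fold change was 0.62 ± 0.11 (SE; edgeR adjusted p = 0.00235). Rplp1, one of the acidic proteins bound to that anchor, stood at 163, 186 and 208 CPM in WT and at 271, 348 and 299 CPM in 5xFAD. The groups of both genes were well apart. The change of Rplp1 was 0.72 ± 0.14 (SE; edgeR adjusted p = 0.00508). Its partner Rplp2 stood at 38.5, 50.1 and 52.2 CPM in WT and at 63.2, 94.0 and 76.3 CPM in 5xFAD, a change of 0.73 ± 0.17 (SE; edgeR adjusted p = 0.00988). Its stretch of pyrimidines, printed above, is 9 bases long.

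Among large subunit genes the smallest adjusted p belonged to Rpl10, whose protein joins the large subunit late in its assembly. It stood at 137, 140 and 139 CPM in WT and at 209, 224 and 203 CPM in 5xFAD. These are narrow, separate ranges, and the log2 fold change was 0.61 ± 0.08 (SE; edgeR adjusted p = 0.000175). Rpl41, the smallest ribosomal protein, went from 65.1, 84.5 and 87.9 CPM to 139, 156 and 129 CPM, a change of 0.83 ± 0.14 (SE; edgeR adjusted p = 0.00148). Rpl39, a protein of the exit tunnel, went from 18.6, 27.7 and 26.7 CPM to 35.2, 49.0 and 44.9 CPM. Both had every 5xFAD library above every WT library. The change of Rpl39 was 0.83 ± 0.19 (SE; edgeR adjusted p = 0.00998). Rpl3, which lies at the peptidyl transferase centre, stood at 384, 387 and 427 CPM in WT and at 436, 552 and 500 CPM in 5xFAD. It was among the smallest called changes, at 0.31 ± 0.10 (SE; edgeR adjusted p = 0.0403). Of its 10 alternative fits 6 kept the call, and the adjusted p over them ran from 0.00854 to 0.186.

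Among small subunit genes, Rpsa, also known as the laminin receptor, stood at 287, 267 and 309 CPM in WT and at 361, 434 and 389 CPM in 5xFAD, a log2 fold change of 0.46 ± 0.10 (SE; edgeR adjusted p = 0.00884). Rps6, the substrate of the S6 kinases downstream of mTOR, stood at 136, 136 and 146 CPM in WT and at 184, 213 and 191 CPM in 5xFAD. Neither gene's groups overlapped. The change of Rps6 was 0.49 ± 0.09 (SE; edgeR adjusted p = 0.00285). Rps4x, an X-linked small subunit gene, went from 184, 163 and 190 CPM to 242, 283 and 270 CPM, a change of 0.57 ± 0.11 (SE; edgeR adjusted p = 0.00422). Rps27a, which is made as a fusion with ubiquitin, had one of the largest called changes, at 0.90 ± 0.25 (SE; edgeR adjusted p = 0.0244). It stood at 38.1, 50.5 and 42.4 CPM in WT and at 57.5, 125 and 61.6 CPM in 5xFAD, so that library 2 stood above the rest. Without that library its log2 fold change was 0.45, which was not called. Rps28 and Rps29, among the smallest small subunit proteins, had changes of 0.80 ± 0.23 and 0.82 ± 0.24 (SE; edgeR adjusted p = 0.0293 and 0.0304). Each of them kept its call in 7 of 10 alternative fits.

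Of the 5 paralogues or retrocopies 1 was called, and all 5 had point estimates above 0, with a median of 0.51. Rpl22l1, whose product can take the place of Rpl22, had the largest called change at 0.91 ± 0.25 (SE; edgeR adjusted p = 0.0251). Its WT libraries stood at 7.27, 8.89 and 10.4 CPM and its 5xFAD libraries at 25.05, 13.4 and 11.7 CPM. Library 1 stood far above the others, and without it the change was 0.50, which was not called. Rpl22 itself stood at 82.4, 86.3 and 92.4 CPM in WT and at 96.6, 114 and 106 CPM in 5xFAD, with a change of 0.28 ± 0.10 (SE; edgeR adjusted p = 0.0692). Its groups did not overlap, but the change missed the threshold, and 3 of 10 alternative fits called it. Rps4l, the autosomal relative of Rps4x, had a change of 0.24 ± 0.14 (SE; edgeR adjusted p = 0.262). Rps27 and its paralogue Rps27l had changes of 0.34 ± 0.26 and 0.47 ± 0.21 (SE; edgeR adjusted p = 0.426 and 0.143). Rpl36a, whose close relative Rpl36al lay under the CPM minimum, rose by 0.56 on the log2 scale (edgeR adjusted p = 0.0121). Of the other listed pairs, Rpl3l, Rpl10l and Rpl39l also lay under the minimum.

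The 16 genes that were not called ranged widely. Rpl7a, a large subunit protein, stood at 96.1, 130 and 86.2 CPM in WT and at 103, 97.8 and 117 CPM in 5xFAD, a change of 0.03 ± 0.17 (SE). Rps15a, a small subunit protein, stood at 112, 109 and 122 CPM in WT and at 108, 129 and 128 CPM in 5xFAD, a change of 0.09 ± 0.08 (SE). In both genes the WT and 5xFAD libraries overlapped. Rps19bp1, a nucleolar partner of Rps19, and Rpl7l1, a protein of ribosome assembly, had changes of 0.12 ± 0.15 and 0.08 ± 0.10 (SE). Rps27rt, Rpl23a and Rpl37a varied most between libraries, with standard errors of 1.01, 0.39 and 0.51. Rps27rt ran from 0.471 to 24.7 CPM within the 5xFAD group alone. Rps21 lay just outside the threshold, at 0.65 ± 0.21 (SE; edgeR adjusted p = 0.0501).

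**Figure D2:**
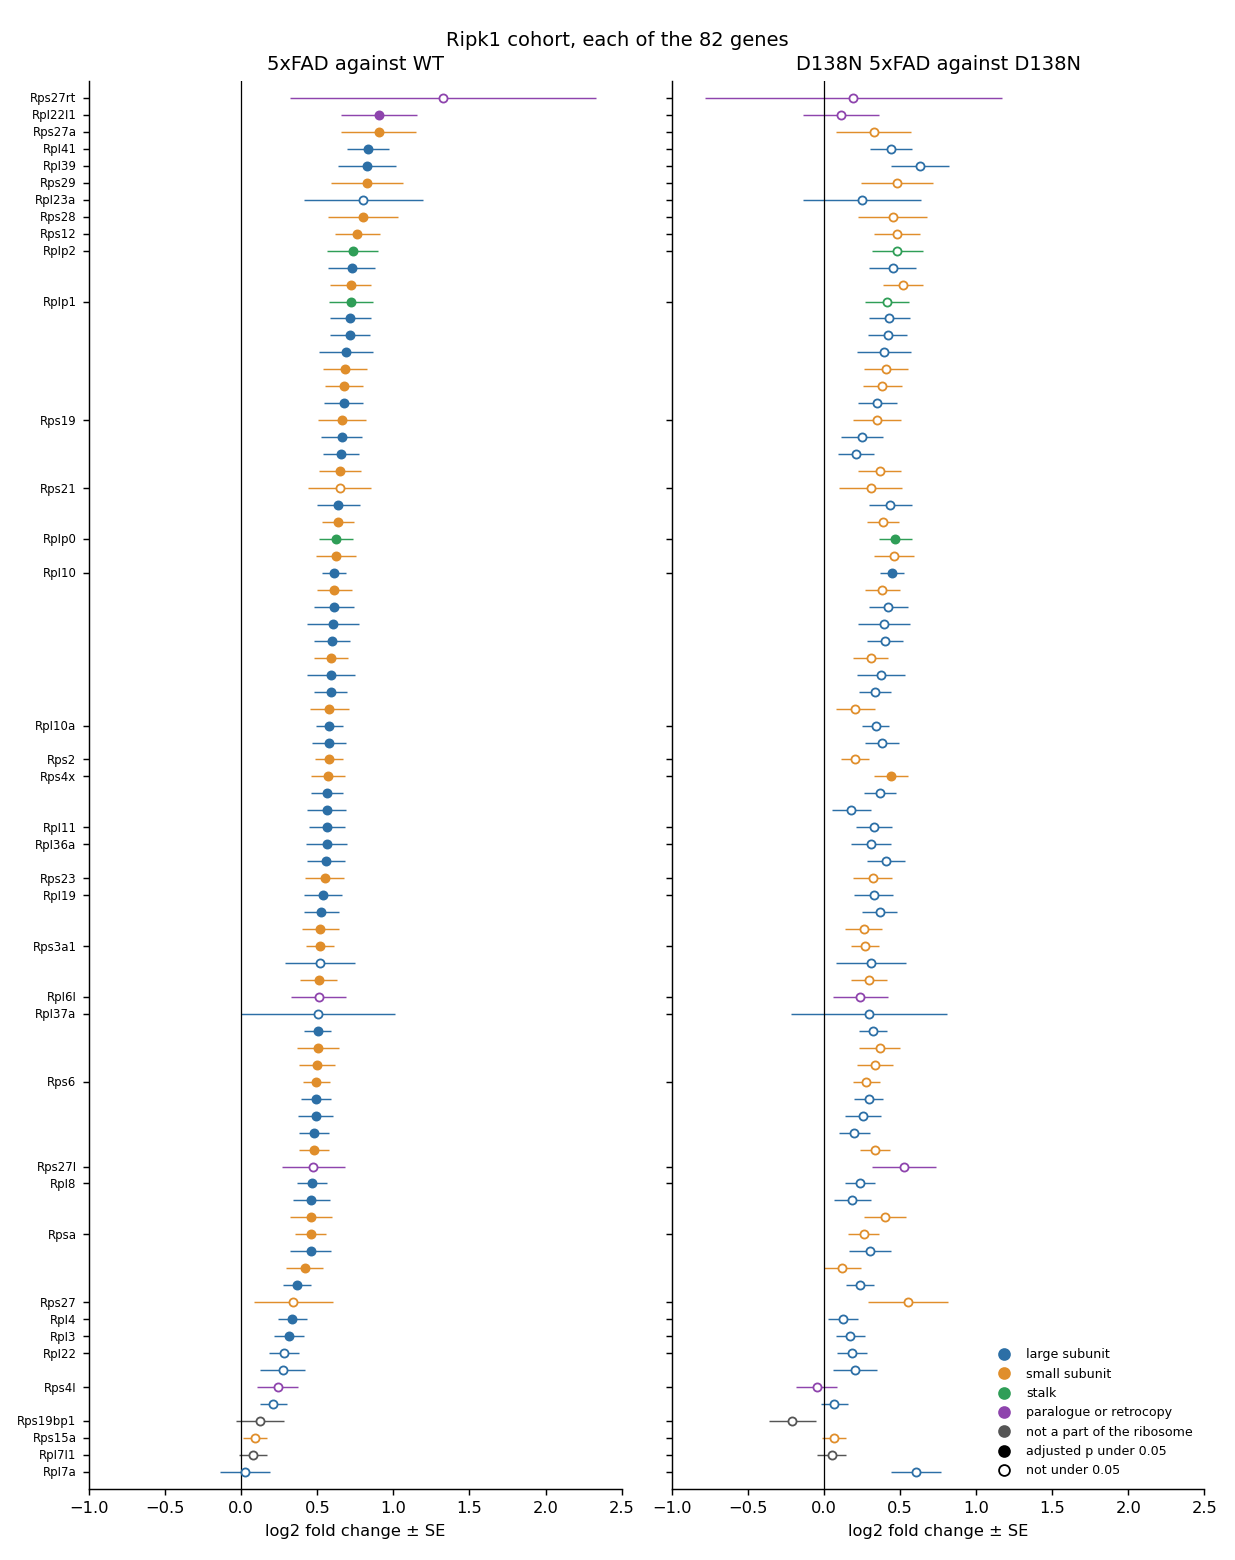
Log2 fold change ± SE (x axis) of each of the 82 genes (y axis, ordered by the left panel, with the genes named in the text labelled) in 5xFAD against WT (left) and D138N 5xFAD against D138N (right) of the Ripk1 cohort. Filled circles passed an adjusted p of 0.05 in edgeR and colours give the class; 66 circles are filled on the left and 3 on the right (Rpl10, Rplp0 and Rps4x).

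Genes of related function moved to different extents in the same comparison. Of the ribosomal proteins that carry other names, Fau, a ubiquitin-like fusion with the small subunit protein eS30, rose by 0.89 and Rack1, the scaffold on the small subunit, by 0.51 on the log2 scale (edgeR adjusted p = 0.00203 and 0.00425). Of 24 translation factors and other TOP mRNAs 13 rose, with a list median of 0.30. Tpt1, the textbook TOP mRNA, stood at 195, 204 and 223 CPM in WT and at 419, 377 and 323 CPM in 5xFAD. Its change of 0.85 ± 0.12 (SE; edgeR adjusted p = 0.000495) was as large as those of the most changed ribosomal protein genes. The elongation factor gene Eef1a1, named after its values were seen, rose by 0.36 on the log2 scale (edgeR adjusted p = 0.017), and Eif3k and Pabpc1 rose by 0.55 and 0.44 (edgeR adjusted p = 0.00203 and 0.00415). The 1 gene of that list that fell was Eif2s3x, at -0.50 ± 0.11 (SE; edgeR adjusted p = 0.00795), also named after its values were seen.

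Factors that assemble ribosomes were not called with them. Of 31 ribosome biogenesis genes 0 passed (9 higher and 2 lower at an unadjusted p under 0.05 in edgeR), with a list median of 0.13, and the smallest adjusted p belonged to Gnl3 (nucleostemin) at 0.26 ± 0.08 (SE; edgeR adjusted p = 0.0521). Of 24 genes that control transcription and translation 3 rose and 3 fell. That is 12.5% of the list each way, near the 8.11% of all genes tested called higher and the 8.02% called lower. Mtor, which encodes the kinase upstream of TOP mRNA translation, stood at 149, 164 and 144 CPM in WT and at 108, 107 and 122 CPM in 5xFAD, a fall of 0.44 ± 0.08 (SE; edgeR adjusted p = 0.00359). Rptor and Tsc2, 2 genes of the same pathway named after their values were seen, fell by 0.28 and 0.23 on the log2 scale (edgeR adjusted p = 0.0347 and 0.024). Rps6ka1, an S6 kinase of the RSK family, and Myc, a transcription factor of ribosome production, rose by 0.70 and 0.71 (edgeR adjusted p = 0.00181 and 0.0224), and Trp53, named after its values were seen, by 0.44 (edgeR adjusted p = 0.0337). Of 75 mitochondrial ribosomal protein genes, whose products serve a separate ribosome, 7 were called higher and 0 lower, with a median of 0.18. Those 7 are 9.33% of the list, near the 8.11% of all genes tested that were called higher. Of 80 respiratory chain subunit genes 20 rose and 0 fell, with a median of 0.28. These medians stand beside 0.02 over all genes tested.

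Markers of several cell types, and RNAs retained in the nucleus, were also called in the same contrast. Of all genes tested in it, 8.11% were called higher and 8.02% lower. All 12 microglial markers rose, among them Trem2, and their summed level went from 334 to 440 CPM in WT to 1696 to 1879 CPM in 5xFAD. Of the 12, Cst7 was at 0 in at least 1 library of the series. Of 6 oligodendrocyte markers 3 rose, with sums of 4723 to 5531 CPM in WT and 6302 to 8020 CPM in 5xFAD. Of 7 astrocyte markers 4 rose, among them Gfap by 2.69, Aqp4 by 0.84 and S100b by 0.81, and 1 fell, the glutamate transporter gene Slc1a2, at -0.71 on the log2 scale (edgeR adjusted p = 1.14e-07, 0.000921, 0.00288 and 0.00788). The astrocyte sums overlapped, at 5684 to 7469 CPM in WT and 6930 to 7174 CPM in 5xFAD. Of 5 lymphocyte markers 3 rose, Cd3g, Nkg7 and Cd8a, from sums of 0.235 to 1.06 CPM to sums of 2.15 to 4.39 CPM, and all 5 were at 0 in at least 1 library of the series. Of 5 RNAs retained in the nucleus 3 fell, Meg3, Miat and Snhg11, by 0.34, 0.35 and 0.25 on the log2 scale (edgeR adjusted p = 0.0479, 0.0405 and 0.0371), and Neat1 rose by 1.10 (edgeR adjusted p = 0.00142). Of 9 neuronal markers 2 fell, Map2 and Syt1, by 0.54 and 0.44 on the log2 scale (edgeR adjusted p = 0.00413 and 0.00434). The part of these cell types and RNAs in the rise of the ribosomal protein genes was not tested.

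The increase with 5xFAD was smaller by point estimate in mice without RIPK1 kinase activity, but the difference did not pass the test. The share of counts on the 82 genes was 0.704, 0.787 and 0.720% in the D138N libraries and 0.833, 1.12 and 0.871% in the D138N 5xFAD libraries. These ranges did not overlap, and library 2 of the second group was the highest of its group in 80 of 82 genes (40.2% of all genes tested). In D138N 5xFAD against D138N, 3 genes were called higher, Rpl10, Rplp0 and Rps4x, and all 3 were also among the 66 called in 5xFAD against WT. Those 3 are 3.66% of the 82, near the 3.12% of all genes tested that were called higher. The median log2 fold change was 0.33, with 80 of 82 point estimates above 0. In 53 of the 82 genes every D138N 5xFAD library lay above every D138N library, against 11.3% of all genes.

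Rpl10 was the gene of the 82 that was called in every alternative fit of this contrast. It stood at 130, 140 and 127 CPM in D138N and at 166, 203 and 170 CPM in D138N 5xFAD, a change of 0.44 ± 0.08 (SE; edgeR adjusted p = 0.00437, 2.11e-05 to 0.0316 over the 10 alternatives). Rplp0 went from 142, 151 and 148 CPM to 175, 244 and 191 CPM, a change of 0.47 ± 0.11 (SE; edgeR adjusted p = 0.0321). Rps4x went from 159, 181 and 176 CPM to 206, 282 and 214 CPM, a change of 0.44 ± 0.11 (SE; edgeR adjusted p = 0.0441). All 3 genes had separate groups, with library 2 on top. The calls of Rplp0 and Rps4x were each kept in 5 of 10 alternatives. The number of genes called depended on the fit: 23 with DESeq2, 39 without the filter on low counts, 11 with the replicate number as a block and between 1 and 11 with a library left out. The shares of all genes called in these fits are not reported here. Rpl7a, which was not called in 5xFAD against WT, stood at 90.5, 91.4 and 72.2 CPM in D138N and at 98.3, 147 and 141 CPM in D138N 5xFAD, and its change of 0.60 ± 0.17 (SE) was not called (edgeR adjusted p = 0.0733). Of the 24 translation factors and other TOP mRNAs 0 were called here (5 higher at an unadjusted p under 0.05 in edgeR), with a median of 0.14. Tpt1 had a change of 0.46 ± 0.12 (SE; edgeR adjusted p = 0.0587). Of the 12 microglial markers 10 rose and of the 6 oligodendrocyte markers 6 rose.

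With the transgenes in both groups, D138N 5xFAD against 5xFAD gave 0 calls among the 82 genes, where 0.365% of all genes tested were called in either direction. At an unadjusted p under 0.05, 34 of the 82 were lower and 0 higher in edgeR, and DESeq2 called 0. The median log2 fold change was -0.26, and 81 of 82 point estimates lay below 0. The 5xFAD and D138N 5xFAD ranges were separate, with the second lower, in 2 of the 82 genes, against 7.73% of all genes. The share of counts of D138N 5xFAD library 2, 1.12%, lay within the 5xFAD range. Without that library 37 of the 82 genes were called lower and the median was -0.43. The share of all genes called in that fit is not reported here. In D138N 5xFAD library 2 the microglial markers summed to 1582 CPM, against 1249 and 1305 CPM in the others of its group and 1696 to 1879 CPM in 5xFAD. Its oligodendrocyte markers summed to 8706 CPM, against 6647 and 6767 CPM, and its respiratory chain genes to 7091 CPM, against 6361 and 6326 CPM. Its astrocyte markers were the lowest of the group, at 7264 CPM against 7990 and 8524 CPM. The part of any of these was not tested. Rps27a, at 45.3, 61.1 and 44.3 CPM in D138N 5xFAD, and Rpl22l1, at 9.23, 11.5 and 8.37 CPM, had among the largest differences, -0.70 ± 0.25 and -0.78 ± 0.25 (SE; edgeR adjusted p = 0.306 and 0.279). In each of them a single 5xFAD library stood far above the others. This comparison and that of 5xFAD with WT share the 5xFAD libraries.

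The test of the difference itself, the interaction of 5xFAD with D138N, called 0 of the 82 genes (1 higher and 3 lower at an unadjusted p under 0.05 in edgeR, 0 with DESeq2), where 0.0281% of all genes were called. Its median was -0.23. D138N without the transgenes gave 0 calls against WT among the 82 and 0% of all genes (0 of the 82 at an unadjusted p under 0.05, 0 with DESeq2), and the median was -0.02. The D138N and WT libraries overlapped in all but 1 of the 82 genes, which was higher in D138N. Of all genes tested, 3.58% were separate with D138N higher and 4.12% with D138N lower.

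**Figure D3:**
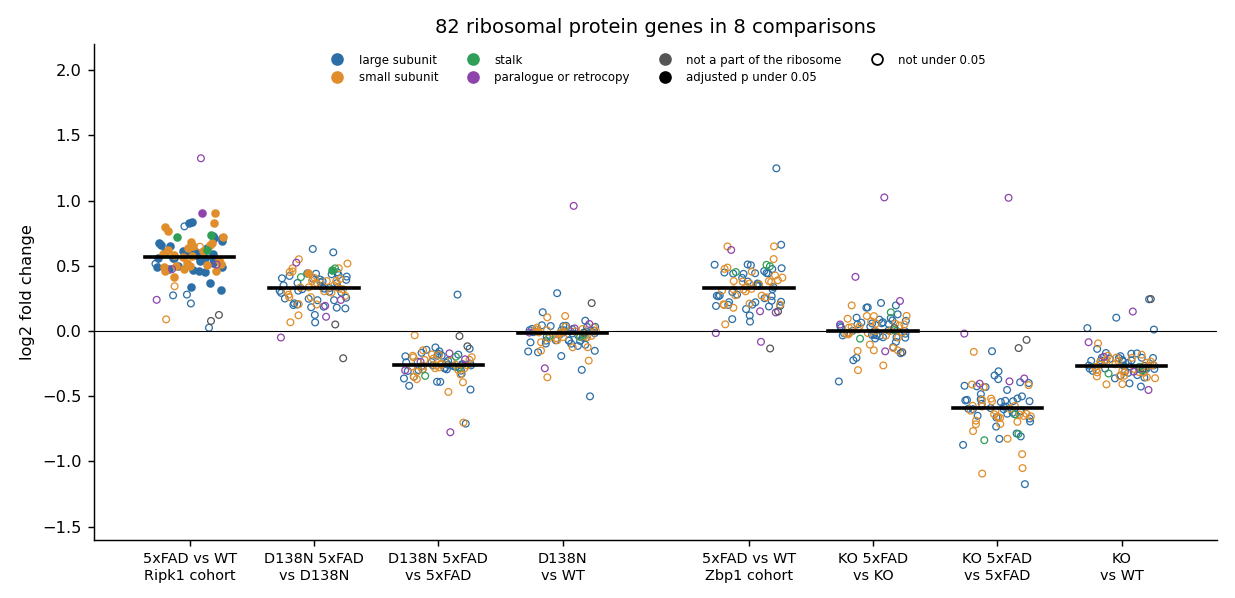
Log2 fold changes (y axis) of the 82 genes in 8 comparisons (x axis), 4 in each cohort. Each circle is a gene, filled where the adjusted p in edgeR lay under 0.05, colours give the class and black bars the medians, which are 0.57, 0.33, -0.26 and -0.02 in the Ripk1 cohort and 0.33, 0.00, -0.59 and -0.27 in the Zbp1 cohort.

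In the Zbp1 cohort no ribosomal protein gene was called in 5xFAD against WT, and the libraries of those 2 groups overlapped. The share of counts on the 82 genes was 0.694, 1.10 and 0.806% in WT, 0.946, 1.55 and 0.768% in 5xFAD, 0.660, 0.777 and 0.739% in Zbp1 KO and 0.721, 0.768 and 0.731% in Zbp1 KO 5xFAD. WT library 2 and 5xFAD library 2, which stood apart in Meg3, were the highest of their group in 80 and 81 of the 82 genes, against 39.2 and 38.5% of all genes. In those 2 libraries the respiratory chain genes also summed to 8610 and 9541 CPM, where the other libraries of their groups lay between 5703 and 6405 CPM. What sets these libraries apart was not tested. The Zbp1 KO and Zbp1 KO 5xFAD libraries lay close together in this measure, at 0.725% ± 0.0597 and 0.740% ± 0.0246 (SD, n = 3 each).

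For 5xFAD against WT in this cohort, 0 of the 82 genes were called in edgeR and 0 in DESeq2, and 2 were higher at an unadjusted p under 0.05 in edgeR. Of all genes tested 3.13% were called. The median log2 fold change was 0.33, with 79 of 82 point estimates above 0, and in 0 genes did every 5xFAD library lie above every WT library, against 8.28% of all genes. Rplp0 stood at 142, 232 and 160 CPM in WT and at 219, 364 and 177 CPM in 5xFAD, a change of 0.51 ± 0.22 (SE; edgeR adjusted p = 0.364). Rpl10 stood at 132, 213 and 138.2 CPM in WT and at 183, 299 and 160 CPM in 5xFAD, a change of 0.41 ± 0.21 (SE; edgeR adjusted p = 0.48). WT library 2 lay above the lowest 5xFAD library in both. Without 5xFAD library 2 the median over the 82 genes was -0.06, and without WT library 2 it was 0.565, so 1 library decided its sign. With both left out it was 0.18 and 2 genes were called higher, Rpl10 and Rps12. Without the filter on low counts 23 of the 82 genes were called higher, and the share of all genes called in that fit is not reported here. Of 24 translation factors and other TOP mRNAs 1 rose, Pabpc1, the poly(A)-binding protein, by 0.35 on the log2 scale (edgeR adjusted p = 0.047), and of 24 control genes 1 rose, Rps6ka1, by 0.77 (edgeR adjusted p = 0.0173). Of the microglial markers 11 of 12 rose.

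The 5xFAD effect was compared between the cohorts in one fit. The Ripk1 cohort minus the Zbp1 cohort gave 0 calls among the 82 genes (1 higher at an unadjusted p under 0.05 in edgeR, 0 with DESeq2) and 0% of 22565 genes, with a median of 0.24. Without 5xFAD library 2 of the Zbp1 cohort that median was 0.63 and 2 genes were called, Rpl22l1 and Rps3a1. The 5xFAD effects of the cohorts were thus not shown to differ.

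Zbp1 KO 5xFAD against Zbp1 KO gave 0 calls among the 82 genes, where 1.23% of all genes tested were called (0 of the 82 at an unadjusted p under 0.05 in edgeR, 0 with DESeq2). The median log2 fold change was 0.00, with 43 point estimates above 0 and 39 below, and its range with any library left out was -0.05 to 0.05. Rplp0 stood at 130, 157 and 154 CPM in Zbp1 KO and at 156, 176 and 156 CPM in Zbp1 KO 5xFAD, a change of 0.14 ± 0.22 (SE; edgeR adjusted p = 0.9998). Rps6 stood at 130, 155 and 140 CPM and at 147, 156 and 150 CPM, a change of 0.09 ± 0.18 (SE). Both genes had overlapping groups. In the same comparison 9 of 12 microglial markers rose, and their sums went from 329 to 365 CPM in Zbp1 KO to 916 to 1094 CPM in Zbp1 KO 5xFAD. Any link between these markers and the ribosomal protein genes was not tested.

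Zbp1 KO 5xFAD against 5xFAD gave the most negative median, -0.59, with 81 of 82 point estimates below 0. No gene of the 82 was called by edgeR or by DESeq2, and 65 were lower and 0 higher at an unadjusted p under 0.05 in edgeR. Of all genes tested 0% were called. In 29 of the 82 genes every Zbp1 KO 5xFAD library lay below every 5xFAD library, against 7.89% of all genes. Rplp1 stood at 256, 512 and 180 CPM in 5xFAD and at 171, 183 and 176 CPM in Zbp1 KO 5xFAD, a difference of -0.84 ± 0.29 (SE; edgeR adjusted p = 0.512). Rps27 stood at 50.9, 101 and 31.2 CPM in 5xFAD and at 38.6, 26.8 and 20.4 CPM in Zbp1 KO 5xFAD, a difference of -1.09 ± 0.40 (SE; edgeR adjusted p = 0.522). In both, library 2 of 5xFAD was the highest and library 3 overlapped the other group. Without 5xFAD library 2 the median over the 82 genes was -0.19. Without the filter on low counts, 68 of the 82 genes were called lower and 1 higher, and the share of all genes called in that fit is not reported here. All 12 microglial markers had point estimates below 0 here and 0 were called.

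The interaction of 5xFAD with Zbp1 KO gave 0 calls among the 82 genes and 0% of all genes (0 of the 82 at an unadjusted p under 0.05 in edgeR, 0 with DESeq2). Its median was -0.31, and 0.05 without 5xFAD library 2. Zbp1 KO against WT gave 0 calls among the 82 genes and 0% of all genes (0 of the 82 at an unadjusted p under 0.05 in edgeR, 0 with DESeq2). Its median was -0.27, and -0.03 without WT library 2. The size or direction of these medians thus rested on library 2 of WT or of 5xFAD.

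**Figure D4:**
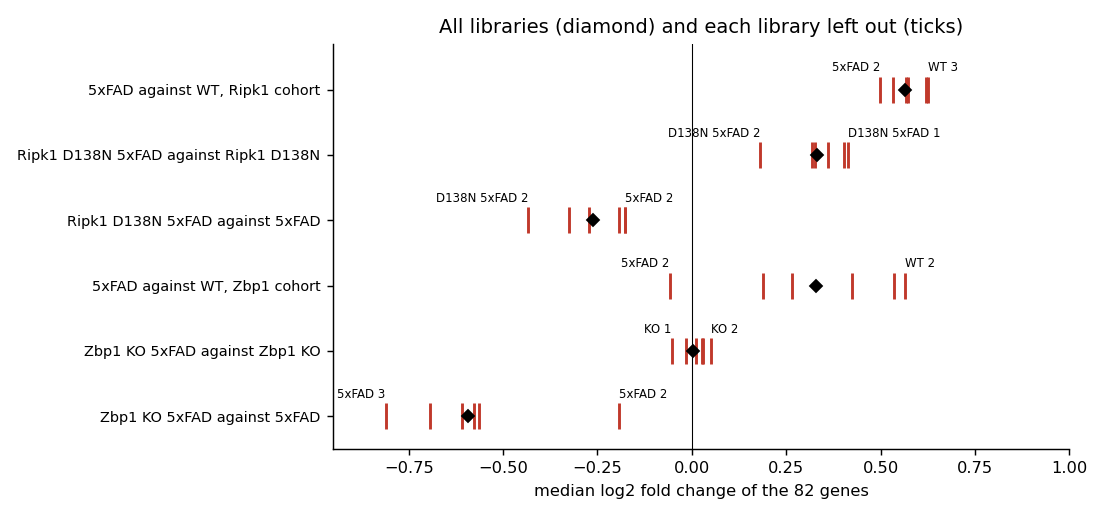
Median log2 fold change over the 82 genes (x axis) in 6 comparisons (y axis). Diamonds are fits with all libraries and ticks are fits with 1 library left out, with the library named at each end; the median of 5xFAD against WT stays between 0.50 and 0.63 in the Ripk1 cohort and lies between -0.06 and 0.565 in the Zbp1 cohort.

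The RIP libraries hold few reads of these genes. ZBP1 binds double-stranded and Z-form nucleic acid, and this assay asks which RNAs come down with it. The RIP table lists 80 of the 82 symbols, all but Rpl37a and Rpl6l. Of totals of 5742746 to 9444018 counts, 91 to 92.4% lay on repeat families. The 80 genes held 1003 counts in the WT input and 536 in the WT IP, 1152 in the 5xFAD input and 540 in the 5xFAD IP. Their share of all counts was 0.0113% in the WT input (95% interval 0.0106 to 0.012%, exact Clopper-Pearson) and 0.00933% in the WT IP (0.00856 to 0.0102%). In 5xFAD it was 0.0122% in the input (0.0115 to 0.0129%) and 0.00793% in the IP (0.00728 to 0.00863%). The share was lower in the IP than in the input in both genotypes. These intervals cover counting error only, and with 1 library per group there is no replicate check and no test.

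With at least 10 counts in input and IP together, 71 of the genes could be compared in WT. Their median ratio of IP to input was 0.877, against 0.896 over 22561 genes, with repeat families left out. Medians and counts past 2-fold were taken after 0.5 was added to each count, and the ratios of single genes without it. Of the 71, 3 lay 2-fold or more above the input, where 2.61% of all did, and 15 lay 2-fold or more below it, where 7% of all did. The highest were Rps4l (4 counts in the input and 9 in the IP), Rplp1 (6 and 12), Rpl10 (5 and 8) and Rps2 (8 and 10). Their ratios were 3.49 (95% interval 0.974 to 15.5), 3.1 (1.08 to 10.1), 2.48 (0.716 to 9.65) and 1.94 (0.689 to 5.66). Among the lowest were Rpl23a (11 and 2 counts), Rpl11 (21 and 4) and Rps23 (9 and 2). Their ratios were 0.282 (0.0304 to 1.29), 0.296 (0.0738 to 0.876) and 0.345 (0.0363 to 1.67). With counts this low most intervals spanned 1.

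In 5xFAD 75 of the genes reached 10 counts. With 0.5 added to each count as in WT, their median ratio was 0.61, against 0.766 over 23012 genes, with repeat families left out. Of the 75, 1 lay 2-fold or more above the input, Rpl19, where 1.61% of all did, and 27 lay 2-fold or more below it, where 14.2% of all did. Rpl19 had 5 counts in the input and 9 in the IP, a ratio of 2.5 (0.751 to 9.48). Rpl4 followed with 14 and 19 counts, Rpl8 with 16 and 18 and Rps15a with 36 and 36, at ratios of 1.88, 1.56 and 1.39. Rps15a was the gene of the 80 with the most counts, and in WT its ratio was 0.757 (0.42 to 1.32). Among the lowest were Rps19bp1 (10 and 1 counts), Rpl10a (17 and 2) and Rplp2 (12 and 2), at ratios of 0.139 (0.0032 to 0.975), 0.163 (0.0183 to 0.687) and 0.231 (0.0251 to 1.04). In WT the ratio of Rplp2 was 1.81 (0.521 to 6.52). With TMM factors between the libraries the median ratios were 0.984 in WT and 0.799 in 5xFAD, against 1.006 and 1.003 over all genes. The genes 2-fold or more below the input were then 11 of 71 in WT and 15 of 75 in 5xFAD, where 4.43 and 5.42% of all genes were.

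**Figure D5:**
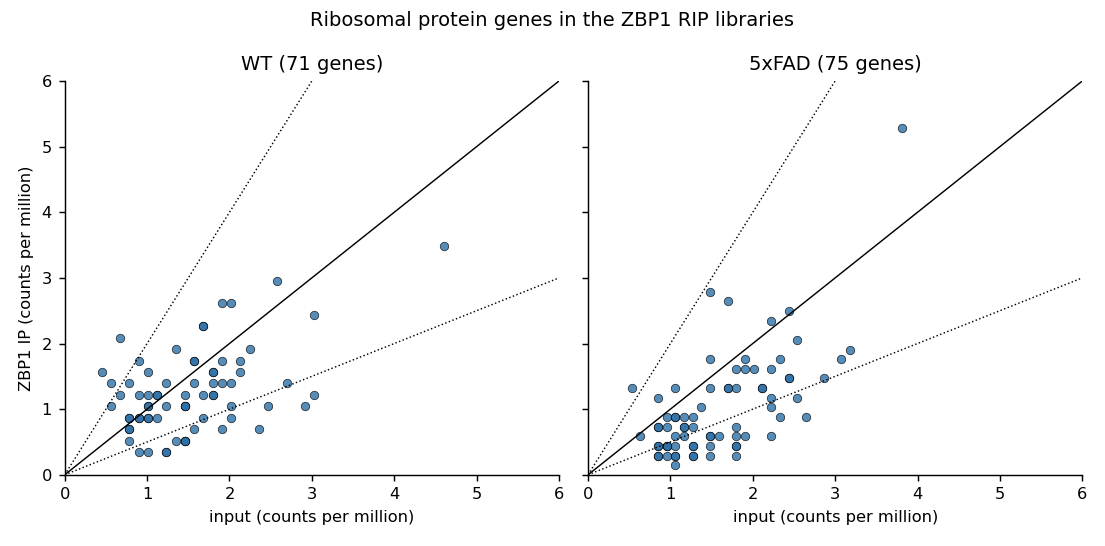
CPM in the ZBP1 IP (y axis) against CPM in the input (x axis) for ribosomal protein genes with at least 10 counts, in WT (left, 71 genes) and 5xFAD (right, 75 genes), 1 library each. The solid line marks equal levels and dotted lines a 2-fold difference. More genes lie under the solid line than above it. With 0.5 added to each count, ratios below and above 1 numbered 44 and 27 in WT and 66 and 9 in 5xFAD.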

How the data were processed

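Mouse hippocampal polyadenylated RNA (24 libraries in 2 cohorts) and 4 RIP libraries were used, grouped by the sample labels. The authors deposited whole-number counts per Ensembl gene ID, 1 table per cohort, and RIP counts per symbol and repeat family, per the file headers. Per the submitters' processing notes the tools were HISAT2, DESeq2 1.42.1 and edgeR 4.0.16, with the builds mm10 (GRCm38) and mm39 (GRCm39) named without a role. The only coordinates given are those of the printed promoter windows, which come from RefSeq sequence of GRCm38.p6. The sources used here do not give the counting options. The authors' comparison and heat-map tables were not used.

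The members and lists were chosen with earlier results of these data known. In R 4.3.3, edgeR 4.0.16 fitted the 12 libraries of each cohort together (TMM, filterByExpr, quasi-likelihood; 21376 and 21274 genes), with a call at a Benjamini-Hochberg adjusted p under 0.05 over all genes. SE is the absolute log2 fold change divided by the square root of F. CPM of a gene are after TMM; shares and summed marker CPM are of raw totals. The pipeline was tested on simulated data. Genes were named by rule: per comparison the 6 largest called changes in each direction, the stalk genes, Rpsa, Rps6, Rps27a, paralogue pairs, the 2 genes that are not ribosome parts, up to 3 genes of smallest p per other list and, in RIP, the 4 highest and 4 lowest ratios. RIP ratios of single genes are of CPM, with exact intervals. Medians of RIP ratios and counts past 2-fold or past 1 add 0.5 to each count first. Alternatives were DESeq2 1.42.0, RLE factors, no filter, a replicate block and left-out libraries. A few genes that the rule names are not reported here.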

Additional observations from a re-analysis of the deposited data

How the results depend on the processing

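Of 132 recomputed counts of calls 113 stayed within 1.5 times the reported count. Only 5xFAD against WT of the Ripk1 cohort (66) and D138N 5xFAD against D138N (3) had calls in the reported fit. The alternatives gave 41 to 70 calls in the former and 1 to 39 in the latter. In every other comparison the reported count was 0, so a kept count there only means that no call was gained. For the named genes 778 of 872 recomputed values kept their direction and side of the threshold. Another 29 newly passed, 30 no longer passed and 35 changed sign, 17 of them in the Zbp1 cohort without 5xFAD 2. None of the 35 passed in either fit. Leaving out 1 library at a time gave 41 to 66 calls in 5xFAD against WT of the Ripk1 cohort, 0 to 37 in D138N 5xFAD against 5xFAD, 1 to 11 in D138N 5xFAD against D138N, 0 to 2 in the difference of the cohorts' 5xFAD effects and 0 in the other 7 comparisons. Without the filter on low counts the calls were 2 in D138N 5xFAD against 5xFAD (Rpl22l1 and Rps27a, both lower), 39 in D138N 5xFAD against D138N, 23 in 5xFAD against WT of the Zbp1 cohort, 69 in Zbp1 KO 5xFAD against 5xFAD, 1 in Zbp1 KO 5xFAD against Zbp1 KO and 2 in the interaction of 5xFAD with Zbp1 KO; the cause was not tested. DESeq2 gave 23 calls in D138N 5xFAD against D138N, and leaving out WT 2 and 5xFAD 2 of the Zbp1 cohort together gave 2 in 5xFAD against WT. The replicate block gave 11 calls in D138N 5xFAD against D138N and 69 in 5xFAD against WT of the Ripk1 cohort; same-numbered libraries correlated at -0.358 to 0.39 in the Ripk1 cohort and at -0.181 to 0.564 in the Zbp1 cohort after group means were removed, so the numbers were not taken to pair the animals, although 8 of 12 libraries in each cohort correlated best with their own number. With at least 50 RIP counts 1 gene remained per genotype, Rps15a, so 0 genes lay past 2-fold in WT and 0 in 5xFAD, and the 5xFAD ratio was 1.387, above the input. With TMM factors 18 genes lay past 2-fold in 5xFAD, 3 above and 15 below, where 4.4% of all genes lay above and 5.42% below. DESeq2 moved the median of all genes by at most 0.009 on the log2 scale. The RIP comparison is limited by depth, with a few counts per gene, and by 1 library per genotype and fraction.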
